A study of Mus musculus with 23 samples.

Results

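The genes described are 10 components of IL-1 and Toll-like receptor signaling, picked by name with earlier results of these data known. They were looked up by symbol in the gene count tables of quadriceps and epididymal fat. They are the receptors Il1r1, Il1rap, Tlr2 and Tlr4, the inhibitors of IL-1 binding Il1r2 and Il1rn, the adaptor Myd88, and the feedback inhibitors Nfkbia, Irak3 and Tnfaip3. Of the 10, 9 were among the 12831 genes of the quadriceps table and 10 among the 16962 genes of the fat table, and Il1rn was not among the genes of the quadriceps table. Male C57BL/6J mice had surgery at 8 weeks of age, either sham surgery (no tumor) or injection of KPC or KPC IL6KO cells into the pancreas, and every mouse was euthanized once wasting was overt in the KPC group. The KPC line came from a pancreatic tumor of a genetically engineered mouse. KPC was a control clone transfected without guide RNA and KPC IL6KO a clone with CRISPR/Cas9-edited Il6, so each tumor group stands for 1 clone. Il6 was intact in the host mice, so the level of Il6 in a host tissue cannot check the group labels. RNA was sequenced from quadriceps (mice 1 to 4, with n = 3 for no tumor and n = 4 for each tumor group) and from fat (mice 5 to 8, n = 4 per group). That each library came from a different mouse is read from the numbers in the sample titles alone. The methods give muscle and fat different library kits, amounts of RNA and indexing, and the sample records name another kit for both. A no tumor muscle library that the authors had judged an outlier and removed is absent from the analysis. Counts per library summed to 19259763 (no tumor 3) to 74907810 (KPC 1) in quadriceps and to 26306377 (KPC 7) to 56308545 (no tumor 8) in fat. A level of 3 counts, below which a gene was not distinguished from 0 by counting error alone, was 0.0462 to 0.154 CPM in quadriceps and 0.0474 to 0.123 CPM in fat.

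IL-1 alpha and IL-1 beta bind the receptor encoded by Il1r1, which then recruits the accessory protein encoded by Il1rap, while Toll-like receptors bind microbial products and molecules released by damaged cells. Both receptor families signal through MyD88 and IRAK kinases to NF-kB, and NF-kB in turn switches on genes for inhibitors of the same route. In muscle and fat these receptors are found on the parenchymal cells as well as on endothelial, stromal and immune cells, and IL-1 and endotoxin are known triggers of muscle protein loss and of lipolysis.

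On the GRCm38.p6 assembly the genes lie on 8 chromosomes. Il1r2 (chr1:40084692-40125230) and Il1r1 (chr1:40222480-40316201) are close to each other on chromosome 1, and Irak3 (chr10:120141648-120202130) and Tnfaip3 (chr10:19000910-19015410) share chromosome 10. The others are Il1rn (chr2:24336860-24351491), Tlr2 (chr3:83836272-83841824), Tlr4 (chr4:66827551-66846581), Myd88 (chr9:119335934-119340018), Nfkbia (chr12:55489409-55492647) and Il1rap (chr16:26581509-26730128). RefSeq promoter sequences on this assembly covered 9 of the 10 genes in 14 windows of the 250 bases before a start, with Tlr4 missing from the table. These starts belong to the promoter sequences and need not be the outer end of the gene. The stretches shown for Tlr2, Il1r1 and Il1r2 lie inside the gene spans given above. Both strands were searched for the kappaB consensus bound by NF-kB, the STAT consensus and the C/EBP consensus. The kappaB consensus was found in 4 genes, Il1r1, Tlr2, Tnfaip3 and Nfkbia, in 4 of the 14 windows, and it was present in 3.9% of the 32851 windows of the table. A STAT motif was found in Il1r2 and Myd88, in 2 of the 14 windows against 7.02% of all, and the C/EBP consensus in 0 of the 9 genes against 0.06% of windows. Every stretch with a match is shown apart from the overlapping match in Tlr2, with the motif in capitals and its first base counted back from the start that the window precedes. The kappaB letters began 29 bases before the start in Nfkbia, 12 and 125 bases before it in Tnfaip3, 173 bases before it in Tlr2 and 232 bases before it in Il1r1, there in 1 of its 2 windows. In Tlr2 another kappaB match began at 172 bases and overlapped the first, and the STAT letters began 46 bases before the start in Myd88 and 111 bases before it in Il1r2. The stretches run 5′ to 3′ on the strand of the gene at chr12:55492657-55492686 (minus), chr10:19015411-19015432 (minus), chr10:19015516-19015545 (minus), chr3:83841762-83841791 (minus), chr1:40266344-40266373 (plus), chr9:119340046-119340074 (minus) and chr1:40085972-40086000 (plus), in the order given here.
Nfkbia kappaB: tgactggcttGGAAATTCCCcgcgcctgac
Tnfaip3 kappaB near: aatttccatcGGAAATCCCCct
Tnfaip3 kappaB far: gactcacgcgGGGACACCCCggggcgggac
Tlr2 kappaB: taggacacctGGGGAATTCCcacacggagc
Il1r1 kappaB: cagggattttGGAATGCCCCcaaggagatg
Myd88 STAT: agggcggagcTTCTCGGAAagcgaaagaa
Il1r2 STAT: cgggtgctttTTCAAGGAActtccgacta
A match says that the letters are present in the window, and binding was not measured.

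Levels of different genes were compared as CPM per kilobase of exon (CPM after TMM scaling, divided by the length of all exons of the gene). In no tumor quadriceps Nfkbia was highest at 22.7 ± 4.97 CPM per kb (SD, n = 3), followed by Myd88 at 2.69 ± 0.168, Il1r1 at 1.15 ± 0.123 and Irak3 at 1.04 ± 0.0629, and the levels of Il1r1 and Irak3 lay within their spread of each other. Tnfaip3, Il1r2, Tlr4 and Tlr2 were between 0.301 and 0.660 CPM per kb, and Il1rap was lowest at 0.186 ± 0.0144 CPM per kb. KPC quadriceps had the same leading order, with Nfkbia at 39.4 ± 4.67, Myd88 at 4.71 ± 0.762 and Il1r1 at 2.13 ± 0.383 CPM per kb, while Tnfaip3 was in place 5 in no tumor and in place 8 in KPC. In no tumor fat Nfkbia (26.8 ± 11.97 CPM per kb, n = 4) and Myd88 (19.9 ± 8.20) led and did not differ beyond their spread, ahead of Il1r1 (6.25 ± 2.52). Il1rn and Il1r2 were lowest there, at 0.210 ± 0.156 and 0.121 ± 0.134 CPM per kb. In KPC fat Il1r2 was in place 4 at 5.61 ± 5.34 CPM per kb, a mean that includes KPC 5 far above the other mice, and Il1rap was in place 10 at 1.31 ± 0.402.

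To ask how the pathway differed in muscle of mice with KPC tumors, KPC quadriceps was compared with no tumor quadriceps. The IL-1 receptor, TLR4, MyD88 and IkB alpha transcripts were higher in KPC, and the transcripts of the IL-1 receptor accessory protein and of A20, the product of Tnfaip3, were lower. A gene was called when edgeR's quasi-likelihood test gave a Benjamini-Hochberg FDR of at most 0.05 over all genes of the table and the FC was at least 1.5. By this rule 4 of the 9 genes rose, where 26.7% of all 12831 genes rose, and 2 fell, where 29% of all genes fell. KPC and no tumor values did not overlap for 4 genes that were higher in KPC (32.3% of all genes) and for 2 that were lower (33% of all genes). The median log2 FC was 0.80 over the 9 genes and -0.03 over all genes.

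Il1r1, the signaling receptor for IL-1, was at 6.86, 6.82 and 8.20 CPM in no tumor, at 13.8, 16.4, 10.5 and 13.5 CPM in KPC and at 8.37, 7.00, 8.06 and 11.8 CPM in KPC IL6KO quadriceps. All 4 KPC mice were above the 3 no tumor mice, and 1 of the KPC IL6KO mice (KPC IL6KO 4) was inside the KPC range. Il1r1 rose in KPC, to 13.6 ± 2.44 CPM (SD, n = 4) against 7.29 ± 0.784 CPM with n = 3, an FC of 1.87 (log2 FC 0.90, standard error 0.199, FDR 0.00180). Il1rap, whose product is needed for the receptor to signal, was at 2.13, 2.27 and 1.95 CPM in no tumor, at 0.847, 0.873, 0.785 and 1.22 CPM in KPC and at 1.91, 1.67, 1.34 and 1.54 CPM in KPC IL6KO. The 3 groups had separate ranges, with no tumor on top, KPC IL6KO between and KPC at the bottom. Il1rap was 2.28-fold lower in KPC than in no tumor (log2 FC -1.19, standard error 0.217, FDR 0.000500), so that the receptor and its accessory chain moved in opposite directions. Tlr4, the endotoxin receptor, was at 1.47, 2.19 and 2.00 CPM in no tumor, at 3.08, 3.18, 5.48 and 1.88 CPM in KPC and at 1.63, 1.24, 1.32 and 1.63 CPM in KPC IL6KO. KPC 3 was highest and KPC 4 lay among the no tumor mice. Tlr4 rose with a log2 FC of 0.86 (standard error 0.319, FDR 0.0315), and it was not called without no tumor 1 (FDR 0.115), without no tumor 3 (FDR 0.0598), without KPC 3 (log2 FC 0.53, FDR 0.0845) or with KPC and no tumor alone in the fit (FDR 0.0644). Tlr2, which binds bacterial lipoproteins, spanned 0.470 to 2.59 CPM in KPC and 0.564 to 1.16 CPM in no tumor mice, with a log2 FC of 0.53 that was not called (FDR 0.350).

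Il1r2, the decoy receptor that binds IL-1 without signaling, was at 0.225, 0.607 and 2.51 CPM in no tumor, at 2.96, 1.198, 1.37 and 1.71 CPM in KPC and at 0.827, 0.456, 0.598 and 1.17 CPM in KPC IL6KO. The 3 no tumor values came from 13, 31 and 49 counts, and no tumor 3 was above 3 of the 4 KPC mice. The log2 FC of 0.84 between KPC and no tumor was not called (FDR 0.274). Without no tumor 3, the library with fewest counts, it was 2.13 and was called (FDR 0.00709). No level of Il1rn, which encodes the IL-1 receptor antagonist, can be given for muscle.

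Myd88 was at 6.77, 7.43 and 6.61 CPM in no tumor, at 10.8, 10.7, 14.9 and 12.03 CPM in KPC and at 7.15, 6.10, 8.28 and 6.77 CPM in KPC IL6KO quadriceps. KPC stood apart from both other groups, and KPC IL6KO reached below and above the no tumor range. The adaptor transcript rose from 6.94 ± 0.433 CPM to 12.1 ± 1.96 CPM in KPC, an FC of 1.75 (log2 FC 0.80, standard error 0.155, FDR 0.000720). Nfkbia, which encodes the IkB alpha protein that holds NF-kB in the cytoplasm, was at 29.3, 35.1 and 45.1 CPM in no tumor, at 57.7, 63.6, 58.5 and 74.02 CPM in KPC and at 17.7, 21.6, 33.0 and 26.2 CPM in KPC IL6KO. Every KPC mouse was above every other mouse, and 3 of the 4 KPC IL6KO mice were below the lowest no tumor mouse. Nfkbia rose with an FC of 1.74 in KPC (log2 FC 0.80, standard error 0.208, FDR 0.00490). Tnfaip3, an NF-kB target that encodes the ubiquitin-editing enzyme A20, was at 4.19, 5.70 and 4.41 CPM in no tumor, at 3.63, 1.76, 3.75 and 2.18 CPM in KPC and at 5.08, 6.82, 4.74 and 3.79 CPM in KPC IL6KO. All KPC values were under the lowest value of the other groups, although KPC 3 and KPC IL6KO 4 were close. A20 transcript was 1.68-fold lower in KPC than in no tumor (log2 FC -0.75, standard error 0.284, FDR 0.0338), opposite to Nfkbia, the other feedback inhibitor with kappaB letters before its start. This call was lost without no tumor 1 (FDR 0.0532), no tumor 2 (FDR 0.136), no tumor 3 (FDR 0.0524), KPC 2 (FDR 0.0700) or KPC 4 (FDR 0.0763), with KPC and no tumor alone in the fit (FDR 0.0669) and with the replicate block (FDR 0.0929). Irak3, which encodes the inhibitory kinase-like protein IRAK-M, had no overlap between KPC (4.23 to 6.38 CPM) and no tumor (3.55 to 4.00 CPM), and its log2 FC of 0.42 was not called (FDR 0.0615).

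**Figure D1:**
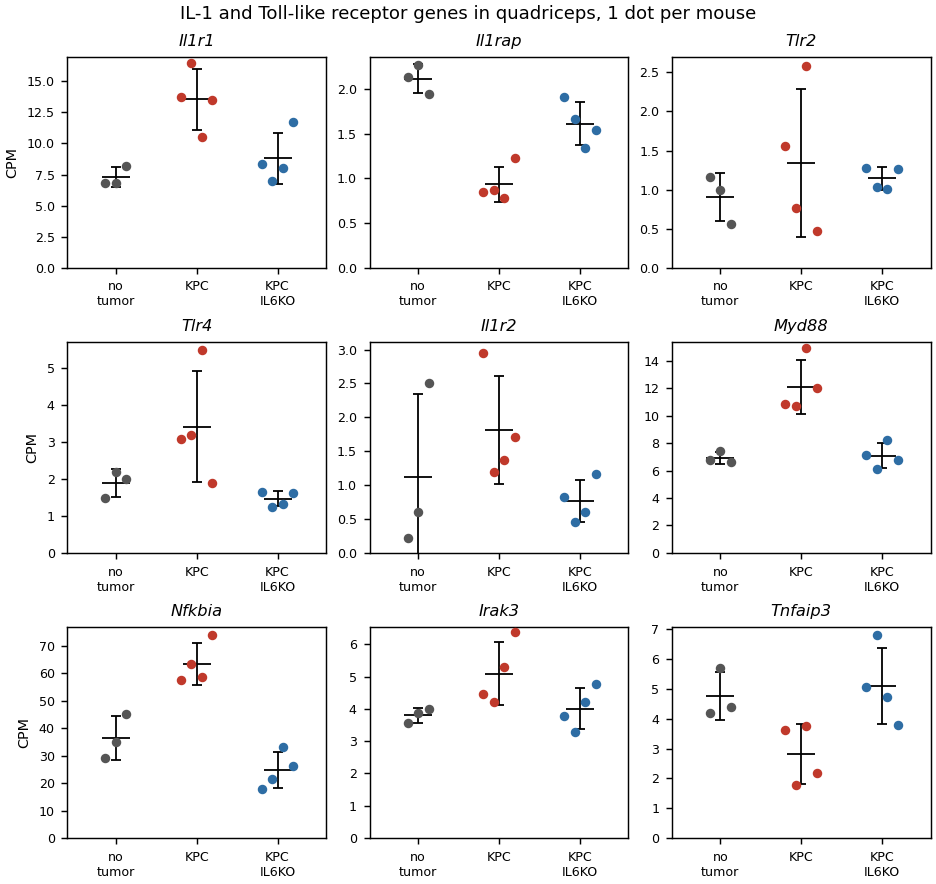
Level of each of the 9 genes in quadriceps in CPM on a linear axis that starts at 0, with 1 dot per mouse, a horizontal line at the group mean and bars of 1 SD. Il1r1, Myd88 and Nfkbia were higher in all 4 KPC mice than in the 3 no tumor mice, and Il1rap and Tnfaip3 were lower.

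KPC IL6KO quadriceps was compared with no tumor to describe muscle of mice with the Il6-edited clone. The paper reports larger tumors with KPC than with KPC IL6KO cells and no correlation of tumor mass with muscle mass. Loss of Il6, clone and tumor size cannot be told apart in these groups. The same test called 0 of the 9 genes up and 0 down, as it did for 0% and 0% of all genes. With an unadjusted p under 0.05 there were 0 higher (2.19% of all genes) and 1 lower (4.72% of all genes), Nfkbia, which was at 24.6 ± 6.55 CPM (SD, n = 4) against 36.5 ± 8.00 CPM in no tumor (log2 FC -0.56, standard error 0.203, FDR 0.546). The edgeR likelihood ratio test also called 0 of the 9, where it called 0.74% of all genes in either direction, and DESeq2's Wald test 0, where it called 0.748%. Groups did not overlap for 0 genes that were higher (7.54% of all genes) and for 1 that was lower (8.01%), Il1rap, with a log2 FC of -0.40 (FDR 0.835). For Il1r1 the log2 FC was 0.28 with a 95% confidence interval from -0.15 to 0.71, and for Myd88 it was 0.03 with an interval from -0.31 to 0.36, which does not include the 0.80 found for KPC. The median log2 FC of the 9 genes was 0.03, and that of all genes 0.00.

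Between KPC and KPC IL6KO quadriceps the same 6 genes were called as between KPC and no tumor. KPC was higher in 4 of the 9 genes (26.4% of all genes) and lower in 2 (27.3% of all genes), and this comparison shares the KPC libraries with the one before. Values did not overlap for 4 genes higher in KPC (31.2% of all genes), Tlr4, Il1r2, Myd88 and Nfkbia, and for 2 that were lower (30.8%), Il1rap and Tnfaip3. The receptor transcripts differed by a log2 FC of 0.62 for Il1r1 (standard error 0.179, FDR 0.00862), 1.23 for Tlr4 (standard error 0.290, FDR 0.00271) and -0.79 for Il1rap (standard error 0.202, FDR 0.00440). Nfkbia differed most, from 24.6 ± 6.55 CPM in KPC IL6KO to 63.4 ± 7.52 CPM in KPC, an FC of 2.57 (log2 FC 1.36, standard error 0.192, FDR 7.52e-05). Myd88 was 1.71-fold higher in KPC (log2 FC 0.78, FDR 0.000447) and Tnfaip3 1.80-fold lower (log2 FC -0.85, FDR 0.0133). Il1r2 had a log2 FC of 1.25 that was not called (FDR 0.0762), and Tlr2 and Irak3 were not called (FDR 0.650 and 0.0881). The median log2 FC was 0.62 over the 9 genes and -0.01 over all genes. Il1r1 was under the FC of 1.5 without KPC 2 (log2 FC 0.52), KPC IL6KO 2 (0.53) or KPC IL6KO 3 (0.58), whereas Il1r2 was called by DESeq2 (FDR 0.0419), with the tumor groups alone in the fit (FDR 0.0173), without no tumor 1 (FDR 0.0318) and without no tumor 3 (FDR 0.0194).

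**Figure D2:**
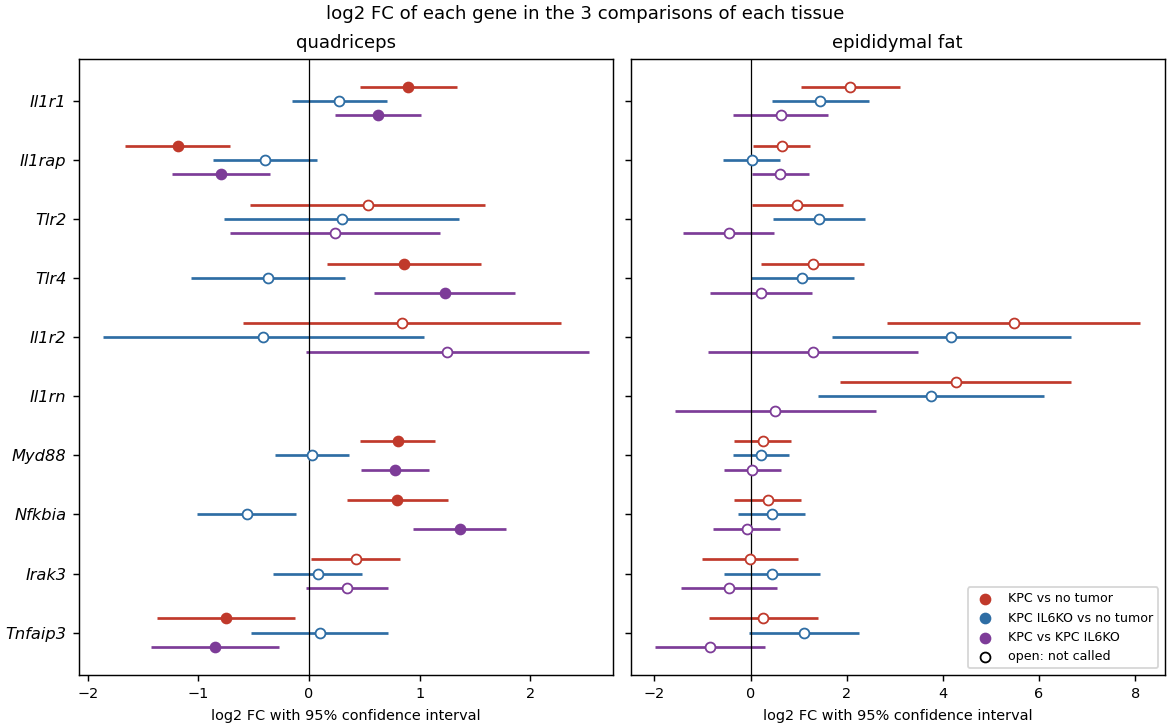
Log2 FC of each gene in the 3 comparisons of quadriceps (left) and epididymal fat (right), with 95% confidence intervals as lines, filled points for called genes and open points for genes not called, and a different scale on each horizontal axis. The filled points are 6 genes in quadriceps in each comparison that includes KPC, and there are 0 in fat.

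For each gene called between KPC and no tumor quadriceps, the genes with the most similar profile over the 11 muscle libraries were looked up among 10519 or 10520 genes, by the root mean square difference of log2 CPM centred on the no tumor mean. Nearest to Myd88 were N4bp2l2 (0.08) and Sin3b (0.10), and nearest to Il1r1 were Evi5 (0.13) and Asb5 (0.16), where the median distance over all genes was 0.61 and 0.68. Fkbp7 and Sntb2 were nearest to Il1rap (both 0.14), and Rras (0.24) and Cryzl1 (0.25) to Tlr4. Nfkbia was closest to Agfg2 (0.27) and Ctla2b (0.27), and Tnfaip3 to Sac3d1 (0.27) and Nlgn2 (0.27). None of these 12 neighbors was another of the 9 genes. The genes searched were those passing a floor of 1 in log2 CPM, which not all of the 9 genes did, so some could not be found as neighbors.

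Beyond the 10 genes, 118 others of the pathway were listed, from ligands to NF-kB targets, also with earlier results of these data known. Of them, 75 were in the quadriceps table. In KPC relative to no tumor 34 rose and 18 fell, with a median log2 FC of 0.56 against -0.03 for all genes. Of all genes 26.7% rose and 29% fell in this comparison. Of 2 measured ligands 1 fell, the alarmin Il33, from 3.54 ± 0.453 to 0.586 ± 0.164 CPM (log2 FC -2.60, FDR 5.35e-06). All 3 other measured genes of the IL-1 receptor family, beyond those of the 10, fell. They were the IL-36 receptor Il1rl2 (log2 FC -1.86, FDR 0.000447), the IL-33 receptor Il1rl1 (-1.08, FDR 0.0422) and the inhibitory receptor Sigirr (-0.99, FDR 0.0277). Among 4 other Toll-like receptors, Tlr6, a partner of TLR2, and Tlr3, a receptor for double-stranded RNA, fell (log2 FC -1.90 and -0.80), and Tlr5, the most abundant, was not called (log2 FC 0.27, FDR 0.704). In the inflammasome list 2 of 5 fell, Pycard (log2 FC -1.08) and Gsdmd (-1.03), and 0 rose.

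In KPC quadriceps, where 26.7% of all genes rose and 29% fell, the remaining lists had calls in both directions. Of 7 co-receptors and chaperones 5 rose and 1 fell, the scavenger receptor Cd36 going from 190 ± 57.3 to 434 ± 108 CPM (log2 FC 1.19, FDR 0.00112), the endotoxin co-receptor Cd14 from 1.85 ± 0.564 to 5.68 ± 5.93 CPM (1.63, FDR 0.0362) and the TLR chaperone Cnpy3 from 12.8 ± 0.949 to 26.2 ± 6.23 CPM (1.04). Unc93b1, which carries endosomal TLRs, fell (-0.99, FDR 0.00713). Adaptors and kinases had 9 of 20 up and 2 down, led by the kinase Map3k8 (log2 FC 2.53), Tollip (2.07) and the TRIF adaptor Ticam1 (1.93). The falls were in Tirap, which bridges TLR2 and TLR4 to MyD88, from 19.6 ± 4.44 to 5.38 ± 0.778 CPM (log2 FC -1.86, FDR 1.33e-05), and in Tab1 (-0.88), and Tab2, the most abundant, was not called (0.09). The list of 11 IKK and NF-kB genes also held the IRF genes Irf5 and Irf7, and 6 of the 11 rose and 2 fell. Ikbkg, the regulatory subunit of the IKK complex, was at 66.5 ± 17.4 against 24.3 ± 1.16 CPM (log2 FC 1.45), Relb at 26.9 ± 21.7 against 8.73 ± 0.3002 CPM (1.63) and Nfkb2 at 34.5 ± 29.8 against 13.8 ± 0.788 CPM (1.32). The 2 falls were in Irf5 and Irf7 (log2 FC -2.18 and -1.74). Among 16 other feedback inhibitors 11 rose and 2 fell, including the A20 adaptor Tax1bp1 from 72.5 ± 3.16 to 296 ± 50.02 CPM (log2 FC 2.03, FDR 1.37e-06), Nfkbib (2.14) and the deubiquitinase Otulin (1.96), and with falls in Tnfaip8l2 (-0.75) and Nfkbie (-0.74). The 7 measured NF-kB targets split, with Lcn2 (log2 FC 6.27), Ier3 (2.47) and Icam1 (0.64) up and Vcam1 (-1.64), Csf1 (-1.56) and the most abundant, Sod2 (-0.76), down.

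In KPC relative to KPC IL6KO quadriceps 33 of the 75 genes were higher (26.4% of all genes) and 21 lower (27.3%), with a median log2 FC of 0.30 against -0.01 for all genes. The counts per list were close to those against no tumor, which uses the same KPC libraries. Among the largest falls of each list, the genes not named above were Socs1, a suppressor of cytokine signaling (log2 FC -3.45, FDR 0.00351, at 1.71 ± 2.34 CPM in KPC IL6KO), Ly86 (-1.28, FDR 0.00840) and the kinase Irak4 (-0.67, FDR 0.0378). Tirap (log2 FC -2.17), Ticam1 (2.51) and Map3k8 (2.49) had the widest differences among the adaptors and kinases. In KPC IL6KO relative to no tumor 0 of the 75 were called by the quasi-likelihood test, and 4 had an unadjusted p under 0.05 (887 of all 12831 genes). The likelihood ratio test called 0 (0.74% of all genes) and DESeq2 called 1 (0.748%), Bcl3, and the median log2 FC was 0.06.

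**Figure D3:**
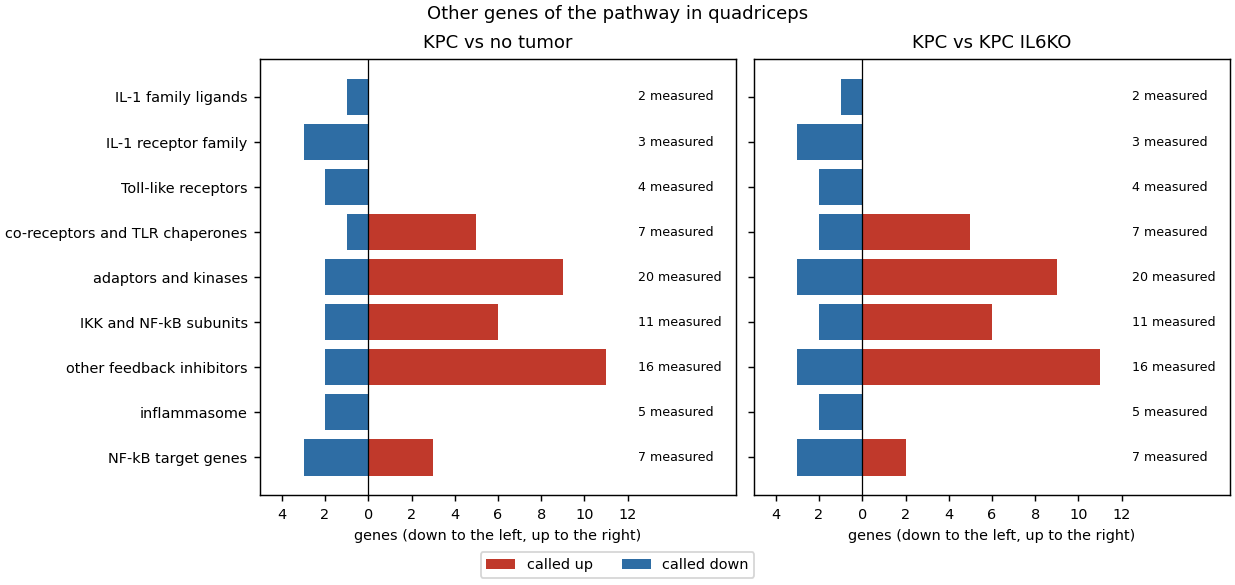
Number of genes of each wider pathway list called up (right of 0) and down (left of 0) in KPC quadriceps relative to no tumor and to KPC IL6KO, with the number of measured genes beside each bar. In each comparison the list of other IL-1 receptor family genes had 3 of 3 down, while Il1r1, not in this list, was called up. The other feedback inhibitors had 11 of 16 up in each. Of all genes 26.7% were up and 29% down relative to no tumor, and 26.4% up and 27.3% down relative to KPC IL6KO.

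Because quadriceps holds many cell types, fewer cells of a type and less RNA per cell cannot be told apart, and marker genes were read beside the pathway. Of 15 neutrophil markers 5 were in the quadriceps table, and 4 rose and 1 fell in KPC relative to no tumor. Their summed level was 2.98, 3.04 and 4.51 CPM in no tumor, 5.65, 13.04, 22.6 and 11.9 CPM in KPC and 7.56, 4.70, 4.55 and 8.04 CPM in KPC IL6KO. The neutrophil genes S100a9 and Retnlg were at 0 counts in no tumor 3 and in 0 other muscle libraries, Ly6g, Mpo and Elane were not in the table, and the most abundant marker, Mmp9, was the marker that fell (log2 FC -1.26). Of 11 monocyte and macrophage markers 1 rose, Cd68, and 2 fell, and their sum, led by Lyz2, was 113, 117 and 161 CPM in no tumor, 195, 102, 153 and 49.1 CPM in KPC and 165, 117, 119.9 and 183 CPM in KPC IL6KO. All 8 fibroblast markers fell (median log2 FC -3.85), and their sum, led by Dcn, was 1302, 1369 and 1446 CPM in no tumor, 313, 215, 202 and 181 CPM in KPC and 1077, 996, 687 and 805 CPM in KPC IL6KO. Of all genes 26.7% rose and 29% fell, and calls in KPC were 1 up and 2 down of 10 endothelial markers (most abundant Cdh5), 1 up and 2 down of 10 adipocyte markers (Pnpla2), 0 up and 3 down of 10 muscle fiber markers (Myh4), 0 up and 1 down of 1 lymphocyte marker (Cd79b) and 0 of 1 pancreatic and gastric epithelial marker (Krt19). In KPC relative to KPC IL6KO, where 26.4% of all genes were higher and 27.3% lower, calls were 3 up and 1 down of 5 neutrophil, 1 up and 4 down of 11 macrophage and 0 up and 7 down of 8 fibroblast markers (median log2 FC -3.11). They were 1 up and 2 down of 10 endothelial, 1 up and 0 down of 10 adipocyte and 0 up and 4 down of 10 muscle fiber markers, with Cd79b down (-1.91) and Krt19 up (2.53). Krt19 reached 5.82 CPM in KPC 1 and 2.15 in KPC 4, while the other KPC mice were inside the KPC IL6KO range. Epididymis and mesothelial markers were not in this table. In KPC IL6KO relative to no tumor 0 markers of any list were called by the quasi-likelihood test. The likelihood ratio test (0.74% of all genes in either direction) and DESeq2 (0.748%) each called 2 neutrophil markers up, S100a9 and Csf3r. An unadjusted p under 0.05 was found for 3 neutrophil markers (2.19% of all genes higher and 4.72% lower). Adipocyte markers were lower in 10 of 10 (median log2 FC -2.01), 5 of them with an unadjusted p under 0.05 (4.72% of all genes) and 4 without overlap (8.01%). The likelihood ratio test called Lep down. Fibroblast markers were lower in 8 of 8, 2 with an unadjusted p under 0.05 and 5 without overlap, beside the same shares of all genes. What part these cell types have in the pathway genes was not tested.

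In epididymal fat, KPC was likewise compared with no tumor. IL-1 receptor, decoy receptor and antagonist transcripts were all at higher mean levels in KPC. Mice of the same group varied more than in muscle, with a coefficient of variation between mice of 63.5% against 22.7%. The quasi-likelihood test called 0 of the 10 genes up and 0 down, as for 0% and 0% of the 16962 genes. An unadjusted p under 0.05 was found for 6 higher genes (6.26% of all genes) and for 0 lower (5.9%). KPC and no tumor did not overlap for 5 genes that were higher (6.52% of all genes), Il1r1, Il1rap, Tlr2, Il1r2 and Il1rn, and for 0 that were lower (4.39%). The likelihood ratio test called 3 up, where it called 1.58% of all genes up, and DESeq2 called 3 up, where it called 2.15%, in each case Il1r1, Il1r2 and Il1rn. The median log2 FC of the 10 genes was 0.81, and that of all genes -0.10.

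Il1r1 was at 32.1, 63.0, 26.9 and 37.02 CPM in no tumor fat, at 311, 169, 82.9 and 109 CPM in KPC and at 108, 51.4, 116 and 160.4 CPM in KPC IL6KO. The lowest KPC mouse was above the highest no tumor mouse, and KPC 5 was the highest of all 12. The mean was 168 ± 102 CPM (SD, n = 4) in KPC against 39.8 ± 16.1 CPM in no tumor, a log2 FC of 2.08 with a 95% confidence interval from 1.05 to 3.11 (FDR 0.199 by the quasi-likelihood test, 0.00437 by the likelihood ratio test and 0.00169 by DESeq2). Il1rap, which fell in muscle, was at 9.004, 9.69, 8.70 and 10.6 CPM in no tumor, at 14.95, 21.2, 11.05 and 12.1 CPM in KPC and at 7.51, 10.2, 7.52 and 13.3 CPM in KPC IL6KO. The 4 KPC mice were above the 4 no tumor mice, and KPC IL6KO reached below and above no tumor (KPC against no tumor log2 FC 0.64, standard error 0.271, FDR 0.378). Tlr2 was at 4.54, 7.27, 4.12 and 5.75 CPM in no tumor, at 10.6, 12.7, 9.90 and 9.398 CPM in KPC and at 16.8, 6.00, 7.99 and 27.7 CPM in KPC IL6KO. KPC was again above every no tumor mouse, but KPC IL6KO had both the highest values and a mouse inside the no tumor range (KPC against no tumor log2 FC 0.98, FDR 0.401). Tlr4 overlapped between no tumor (5.37 to 21.4 CPM) and KPC (15.5 to 42.6 CPM) (log2 FC 1.30, FDR 0.337).

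The inhibitors of IL-1 binding had the widest differences. Il1r2 was at 0.246, 0.0692, 0.0232 and 0.585 CPM in no tumor fat, at 25.8, 7.59, 4.18 and 5.203 CPM in KPC and at 5.15, 0.514, 2.11 and 9.63 CPM in KPC IL6KO. The no tumor values came from 6, 2, 1 and 37 counts, so that in no tumor 6 and no tumor 7 the gene was not distinguished from 0, while the KPC mice had 124 to 885 counts. The log2 FC of KPC against no tumor was 5.48, with a 95% confidence interval from 2.85 to 8.11 (FDR 0.191 by the quasi-likelihood test, 0.00135 by the likelihood ratio test and 2.50e-05 by DESeq2). It was 4.56 without KPC 5 and 6.61 without no tumor 8. Il1rn was at 2.37, 0.657, 0.442 and 1.17 CPM in no tumor, at 12.99, 11.1, 11.6 and 53.4 CPM in KPC and at 38.1, 0.857, 4.75 and 18.5 CPM in KPC IL6KO. KPC values lay close together apart from KPC 8, and KPC IL6KO spread from the no tumor range to near the KPC maximum. For Il1rn the log2 FC of KPC against no tumor was 4.27, with an interval from 1.86 to 6.67 (FDR 0.225, 0.00647 by the likelihood ratio test, 0.000677 by DESeq2, and 0.0489, called, with KPC and no tumor alone in the quasi-likelihood fit). It was 3.36 without KPC 8 and 4.86 without no tumor 5.

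Myd88 in fat was at 71.6, 29.9, 67.1 and 36.6 CPM in no tumor, at 75.2, 58.6, 59.3 and 51.0 CPM in KPC and at 59.8, 65.0, 49.8 and 62.8 CPM in KPC IL6KO. No tumor split into a high and a low pair, and both tumor groups fell almost wholly between the pairs (log2 FC of KPC against no tumor 0.25, FDR 0.717). Nfkbia was at 35.6, 71.9, 31.9 and 33.0 CPM in no tumor, at 75.6, 64.2, 40.4 and 41.2 CPM in KPC mice and at 65.8, 44.3, 47.9 and 75.9 CPM in KPC IL6KO, so that no tumor 6 alone in its group overlapped the tumor groups (log2 FC 0.36, FDR 0.682, and 0.72 without no tumor 6). Irak3 and Tnfaip3 overlapped as well, with a log2 FC of -0.00 and 0.26 (FDR 0.998 and 0.854), and Tnfaip3 was at 0.74 without no tumor 6. Across the 10 genes no tumor 7 had the lowest value of its group in 9, and no tumor 6 the highest in 6. KPC 5 was highest of its group in 6 genes, KPC IL6KO 6 lowest in 8 and KPC IL6KO 8 highest in 7.

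**Figure D4:**
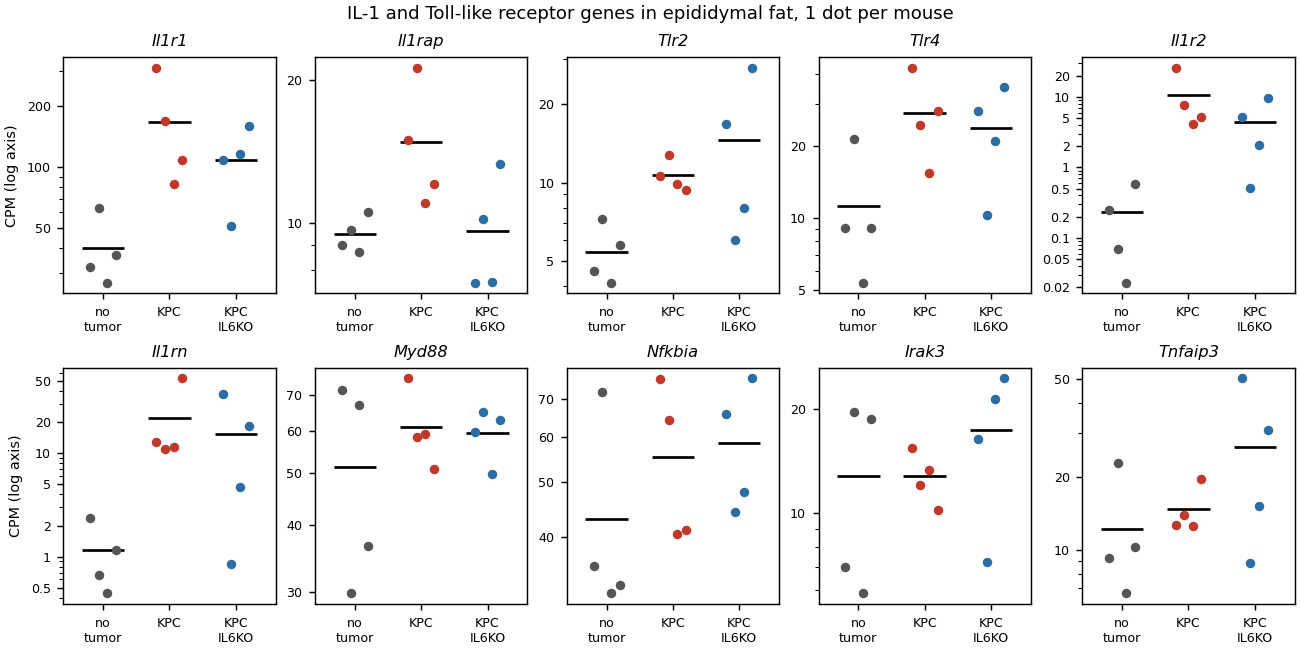
Level of each of the 10 genes in epididymal fat in CPM on a log axis, with 1 dot per mouse and a line at the group mean. For Il1r1, Il1rap, Tlr2, Il1r2 and Il1rn the 4 KPC mice are above the 4 no tumor mice, and for all 10 genes KPC IL6KO overlaps no tumor.

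In KPC IL6KO fat relative to no tumor Il1r1, Tlr2, Tlr4, Il1r2 and Il1rn again had higher means. The quasi-likelihood test called 0 of the 10 genes up and 0 down, again as for 0% and 0% of all genes, and 10 of 10 had a log2 FC above 0. An unadjusted p under 0.05 was found for 5 higher genes (8.17% of all genes), Il1r1, Tlr2, Tlr4, Il1r2 and Il1rn, and 0 lower (1.17%). Groups did not overlap for 0 higher (1.52% of all genes) and 0 lower genes (0.489%). The likelihood ratio test called 2 up (1.23% of all genes up) and DESeq2 2 up (1.66%), Il1r2 and Il1rn. Il1r2 was at 4.35 ± 4.01 CPM against 0.231 ± 0.255 CPM in no tumor (log2 FC 4.18, FDR 0.394, 0.0233 by the likelihood ratio test and 0.00515 by DESeq2), and Il1rn at 15.6 ± 16.8 against 1.16 ± 0.864 CPM (log2 FC 3.75, FDR 0.394, 0.0301 and 0.00685). The log2 FC was 1.45 for Il1r1, 1.43 for Tlr2, 1.10 for Tnfaip3 and 1.08 for Tlr4, and 0.02 for Il1rap. The median was 1.09 over the 10 genes and -0.03 over all genes.

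KPC and KPC IL6KO fat overlapped for each of the 10 genes, with 0 higher (0.637% of all genes) and 0 lower (3.69%) without overlap. The quasi-likelihood test called 0 up and 0 down (0% and 0% of all genes), the likelihood ratio test 0 (0.389% of all genes in either direction) and DESeq2 0 (0.737%). An unadjusted p under 0.05 was found for 1 higher gene (0.778% of all genes) and 0 lower (5.48%), Il1rap, with 14.8 ± 4.57 CPM in KPC against 9.64 ± 2.77 CPM in KPC IL6KO (log2 FC 0.62, 95% confidence interval from 0.03 to 1.22, FDR 0.784). For Il1r2, not called in muscle by the same test, the interval ran from -0.89 to 3.48. The intervals of Il1r1 (-0.37 to 1.62), Tlr4 (-0.83 to 1.27) and Tnfaip3 (-1.98 to 0.30) included the 0.62, 1.23 and -0.85 called in muscle. Those of Nfkbia (-0.78 to 0.62), Myd88 (-0.55 to 0.62) and Il1rap did not include the 1.36, 0.78 and -0.79 called there. The muscle interval of Myd88 (0.47 to 1.08) overlapped that in fat, and those of Nfkbia (0.94 to 1.78) and Il1rap (-1.23 to -0.35) did not. Whether the difference between KPC and KPC IL6KO itself differs between the tissues was not tested.

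Of the 118 other pathway genes 105 were in the fat table. In KPC relative to no tumor 0 were called by the quasi-likelihood test, 38 had an unadjusted p under 0.05 (2061 of all 16962 genes), the likelihood ratio test called 11 up (1.58% of all genes) and 1 down and DESeq2 14 up (2.15%) and 1 down. The median log2 FC was 0.35 against -0.10 for all genes. KPC IL6KO relative to no tumor gave 0 calls, 41 genes with an unadjusted p under 0.05 (1584 of all genes), 11 up by the likelihood ratio test (1.23%) and 19 up by DESeq2 (1.66%). The median was 0.60 against -0.03. Between KPC and KPC IL6KO there were 0 calls, 8 genes with an unadjusted p under 0.05 (1062 of all genes), 0 by the likelihood ratio test (0.389%) and 1 down by DESeq2 (0.737%), Ptgs2. The median was -0.15 against -0.05. Il33, the most abundant ligand, averaged 45.9 ± 4.44 CPM in KPC, 76.7 ± 57.9 CPM in KPC IL6KO and 21.6 ± 4.67 CPM in no tumor (FDR 0.397 and 0.385). In KPC IL6KO against no tumor the likelihood ratio test and DESeq2 each called Il33 and Il1b up. The lists with the highest medians in KPC were the inflammasome (1.44, 7 of 7 genes above 0), NF-kB targets (1.35, 16 of 18 above 0) and ligands (1.11, 5 of 5 above 0), and the adaptors and kinases had a median of -0.05. Chosen after their values were seen, NF-kB targets called by the other tools in each tumor group included the acute phase gene Saa3, at 3.27 ± 1.82 CPM in no tumor, 232 ± 77.0 CPM in KPC mice and 253 ± 401 CPM in KPC IL6KO mice, and Il6 itself, at 0.0216 ± 0.0298, 3.37 ± 1.56 and 2.43 ± 2.64 CPM. The feedback inhibitor Bcl3 and the co-receptor Cd14, named on the same ground, were at 2.35 ± 1.18 and 9.83 ± 4.98 CPM in no tumor, 13.3 ± 1.24 and 56.4 ± 23.9 CPM in KPC mice and 21.3 ± 15.5 and 74.1 ± 67.4 CPM in KPC IL6KO. The most abundant genes of the other lists were not called and had a log2 FC of KPC against no tumor of 0.10 for Sigirr, 0.26 for Tlr3, -0.13 for Hsp90b1, -0.27 for Irak1, 0.17 for Ikbkb, -0.13 for Tax1bp1, 1.27 for Gsdmd and 0.18 for Lcn2.

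Fat libraries also differed in other tissue. The epididymis gene Gpx5 was over 1000 CPM in no tumor 5 and 7, in all 4 KPC mice and in KPC IL6KO 6, where it ranged from 21347 to 54957 CPM, and it was between 4.69 and 85.8 CPM in no tumor 6, no tumor 8 and in KPC IL6KO 5, 7 and 8. Crisp1, another epididymis gene, named after its values were seen, was the most abundant marker of the list in the latter 5 libraries, at 12023 and 14517 CPM in the no tumor and at 621, 12122 and 9432 CPM in the KPC IL6KO mice. These libraries were thus low in Gpx5 and not all low in epididymis markers. The summed level of the 11 epididymis markers, with Gpx5 the highest on average, was 99801, 13513, 82790 and 18649.6 CPM in no tumor, 47754, 78438, 52191 and 49189 CPM in KPC and 772, 105966, 15731 and 10288 CPM in KPC IL6KO. No tumor 7 and KPC IL6KO 6, the libraries lowest in most of the 10 genes, were thus among those high in Gpx5. Among the Gpx5-high libraries alone, a split chosen after seeing the data, the quasi-likelihood test called 1 of the 10 genes up between 4 KPC and 2 no tumor mice, Tlr2 (log2 FC 1.39, FDR 0.0492), where it called 342 of all genes up and 51 down. Il1r1 (2.59, FDR 0.0681), Il1r2 (6.52, FDR 0.0632) and Il1rn (4.12, FDR 0.0986) were not called. Nor were Tlr4 (2.02, FDR 0.0661), Irak3 (1.08, FDR 0.0810), Tnfaip3 (0.97, FDR 0.106) and Nfkbia (0.80, FDR 0.169). Among the Gpx5-low libraries KPC IL6KO and no tumor differed by a log2 FC of 1.34 for Il1r1, 4.00 for Il1r2 and 4.45 for Il1rn, with 0 calls (FDR 0.709). Neutrophil markers, 9 of 15 measured, summed to 11.2, 775, 143 and 379.9 CPM in no tumor, 81.8, 48.4, 86.5 and 168 CPM in KPC and 74.5, 9.05, 409 and 167 CPM in KPC IL6KO, a sum led by Ltf. Ltf alone was at 759 CPM in no tumor 6, whereas S100a9 ranged from 0.0465 to 0.409 CPM in no tumor, 5.01 to 15.7 CPM in KPC mice and 0.823 to 10.9 CPM in KPC IL6KO, and Cxcr2 was at 0 counts in no tumor 6 and 7. Monocyte and macrophage markers, 13 of 14 measured and led by Lyz2, summed to 459.7, 1157, 298 and 617 CPM in no tumor, 2048, 2032, 1357 and 1382 CPM in KPC and 1793, 500.2, 1508 and 3703 CPM in KPC IL6KO. The macrophage sum was thus lowest in no tumor 7 and KPC IL6KO 6 and highest in KPC IL6KO 8, like most of the 10 genes within these groups. The fibroblast sum had the same lowest and highest mice in these groups (1114 CPM in no tumor 7, 1592 CPM in KPC IL6KO 6 and 5282 CPM in KPC IL6KO 8), and the endothelial sum was lowest in the same mice (169 CPM in no tumor 7 and 331 CPM in KPC IL6KO 6). Muscle fiber markers, 10 of 10 measured and led by Myh4, summed to 10.4 to 12.16 CPM in KPC, 17.3 to 319 CPM in no tumor and 96.0 to 3060.4 CPM in KPC IL6KO, and Myh4 was at 0 counts in no tumor 5, KPC 5 and KPC 7.

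The quasi-likelihood test called 0 markers of any list in fat in the 3 comparisons. In KPC relative to no tumor an unadjusted p under 0.05, given by 2061 of all 16962 genes, was found for 7 of 9 neutrophil markers (median log2 FC 2.54), 6 of 13 monocyte and macrophage markers (1.31), 0 of 10 endothelial markers (0.43), 4 of 8 fibroblast markers (0.13), 1 of 9 lymphocyte markers (-1.07), 7 of 10 muscle fiber markers (-4.63), 3 of 10 adipocyte markers (-1.39), 0 of 11 epididymis markers (-0.01), 1 of 7 mesothelial markers (0.21) and 5 of 7 pancreatic and gastric epithelial markers (1.39). The likelihood ratio test (268 of all genes up and 145 down) called 4 neutrophil, 2 macrophage and 3 pancreatic and gastric epithelial markers up and 2 fibroblast, 3 muscle fiber and 1 adipocyte markers down, and DESeq2 (364 up and 221 down) called 4 muscle fiber markers down and the same numbers elsewhere. In KPC IL6KO relative to no tumor an unadjusted p under 0.05 (1584 of all genes) was found for 11 of 13 macrophage, 5 of 9 neutrophil, 5 of 10 muscle fiber, 4 of 7 epithelial, 1 of 8 fibroblast and 1 of 7 mesothelial markers and for 0 of the other lists. There the likelihood ratio test (1.23% of all genes up) called 3 and DESeq2 (1.66%) 4 neutrophil markers up, and each called Itgam and Msln up. In KPC relative to KPC IL6KO it was found (1062 of all genes) for 9 of 10 muscle fiber markers, 3 of 7 epithelial, 2 each of the fibroblast, lymphocyte and adipocyte and 1 each of the neutrophil and macrophage markers. There the likelihood ratio test (0.389% of all genes in either direction) called 9 and DESeq2 (0.737%) 7 muscle fiber markers down, and each called Tff1 and Tff2 up. The most abundant markers of the lists not named so far were Pecam1 (endothelial), Col3a1 (fibroblast), Klrb1c (lymphocyte), Fabp4 (adipocyte), Msln (mesothelial) and Krt8 (epithelial). What part any of these has in the levels of the 10 genes was not tested.

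**Figure D5:**
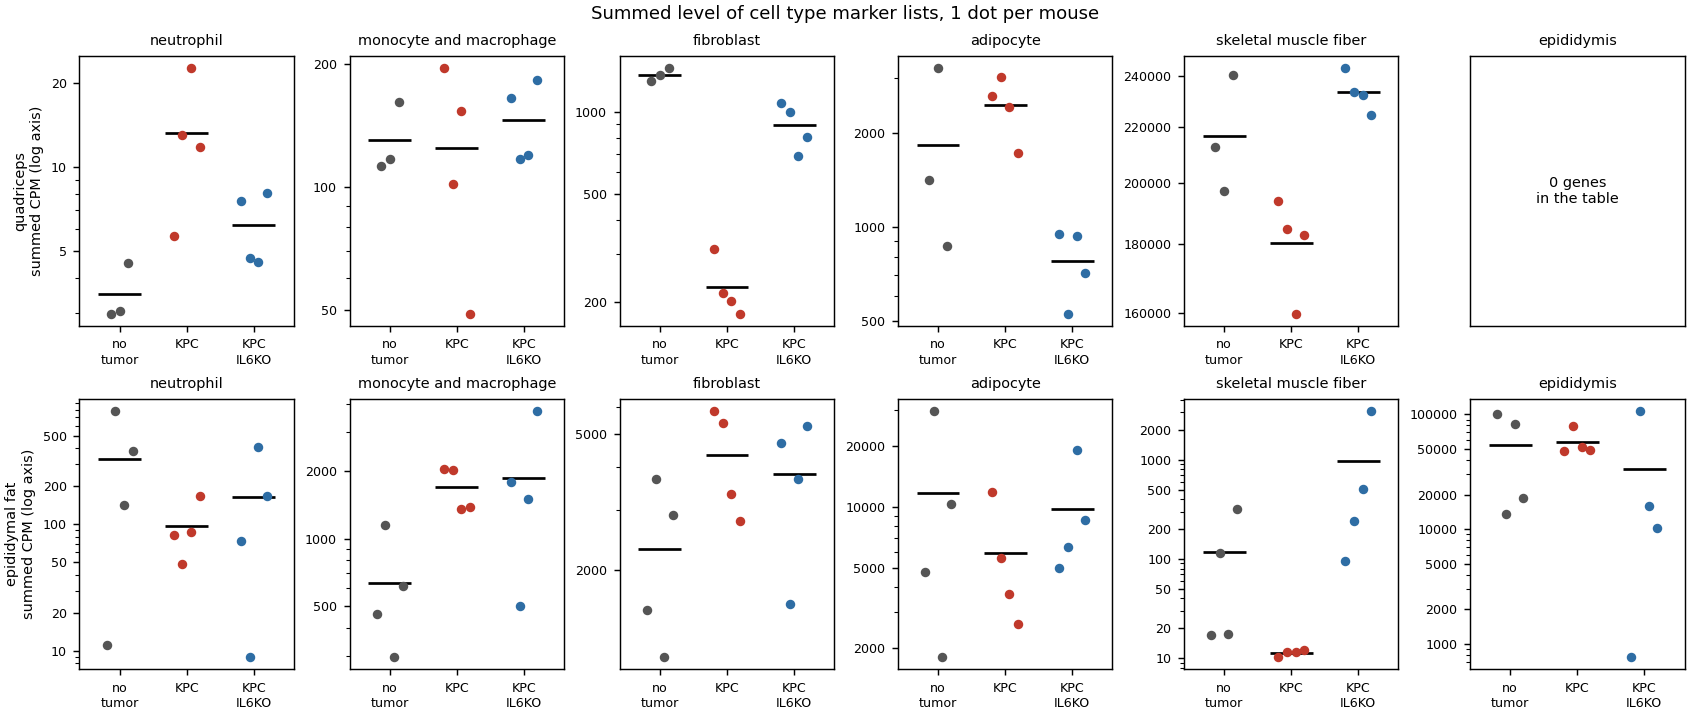
Summed CPM of the measured genes of 6 marker lists on log axes, in quadriceps (top) and epididymal fat (bottom), with 1 dot per mouse and a line at the group mean. In fat, the epididymis sum ran from 772 to 105966 CPM and the macrophage sum of every KPC mouse was above that of every no tumor mouse.

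The response to a tumor was then compared between tissues, as the log2 FC against no tumor in quadriceps minus that in fat, over 12599 genes in both tables and with all 23 libraries in 1 fit. For KPC the response of 0 of the 9 shared genes was higher in quadriceps (18.1% of all genes) and of 2 lower (18.8%), Il1rap and Il1r2. Il1rap had a difference of -1.94 (standard error 0.329, FDR 0.000171), being lower in KPC muscle and higher on average in KPC fat, and Il1r2 a difference of -4.71 (standard error 1.29, FDR 0.00736). For Il1r2 it was -3.38 without quadriceps no tumor 3 (FDR 0.0462) and -6.01 without fat no tumor 8, and it was called each time. With limma voom and group weights Il1r2 was not called (-4.36, FDR 0.0731). Il1r1 differed by -1.28 and was not called (FDR 0.0611), but it was called by the likelihood ratio test (FDR 0.0449) and without fat no tumor 6 (FDR 0.0201), KPC 7 (FDR 0.0285), KPC 8 (FDR 0.0418) or KPC IL6KO 6 (FDR 0.0365). Without fat KPC 5 it was -0.80 (FDR 0.184), and it was not called with voom. Tnfaip3 (-1.13, FDR 0.164) was called without fat no tumor 6 alone (-1.61, FDR 0.0366), and Tlr2, Tlr4, Myd88, Nfkbia and Irak3 differed by -0.55 to 0.43 and were not called. For KPC IL6KO 0 of the 9 responses were higher and 0 lower (0% and 0% of all genes), by the likelihood ratio test 0 (0.31% of all genes in either direction) and by voom 0 (0%). An unadjusted p under 0.05 was found for 0 higher (1.73% of all genes) and 4 lower (6.23%), Il1r1 (-1.15), Tlr4 (-1.42), Il1r2 (-4.52) and Nfkbia (-0.97), with FDR values from 0.411 to 0.605. The difference for Il1r2 was -5.82 without fat no tumor 8 and -3.19 without quadriceps no tumor 3. The fit took the 23 libraries as separate mice, which rests on the numbers in the sample titles. Tissue was then confounded with the mice and also with library preparation. A difference between tissues and one between preparations therefore cannot be told apart.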

How the data were processed

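The authors assessed reads with FastQC, aligned them with STAR to mm10, assigned uniquely mapped reads to genes (featureCounts 1.5.1, per the submitters' processing notes, which also name edgeR 3.12.1) and deposited each value as a raw count per gene. No unassigned column was left over in either table. R 4.3.3 with edgeR 4.0.16 was used for the quasi-likelihood test after TMM scaling, with the 3 groups of a tissue in 1 fit and p-values adjusted by Benjamini-Hochberg over all genes of the table. The filterByExpr function removed no gene. A call needed an FDR no higher than 0.05 with an FC of 1.5 or more, and every FDR without a named tool is from this test. CPM used TMM-scaled library sizes, log2 CPM a prior count of 2, and exon lengths the GENCODE vM21 annotation. Genes were named by rule: the 10 components, the most abundant gene of each pathway and marker list, up to 3 called genes with the largest rise and 3 with the largest fall per pathway list and comparison, and the 2 genes nearest in profile to each called gene. Other genes, such as single markers and those called by another tool, were named after their values were seen. The components and lists were chosen with earlier results of these data known. Alternatives were the edgeR likelihood ratio test, DESeq2 1.42.0, RLE scaling, only the compared groups in the fit, no filter (the same fit, since no gene had been removed), a floor of 10 counts per library, a replicate block, limma 3.58.1 voom for the difference between tissues, leaving out each library, and, added after seeing the data, a split of fat libraries at 1000 CPM of Gpx5. Motifs and figures used Python 3.11.15 with pandas 2.3.3 and matplotlib 3.10.9.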

Additional observations from a re-analysis of the deposited data

Results flagged for a closer look

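Over both tissues 48 groups of 4 mice were tested by Dixon's criterion, and 3, all in fat, had 1 mouse far from the other 3, which chance alone gives in about 1 in 20 groups. In fat Il1r2 was at 25.8 CPM in KPC 5, while the other KPC mice had 4.18 to 7.59 CPM. Il1rn was at 53.4 CPM in KPC 8, with the other KPC mice between 11.1 and 12.99 CPM. Nfkbia was at 71.9 CPM in no tumor 6, and the remaining no tumor mice had 31.9 to 35.6 CPM. By the test of the difference itself, the response differed between the tissues in 2 of 18 tests, both among the 9 of KPC (18.1% of all genes higher and 18.8% lower) and 0 among the 9 of KPC IL6KO. Quadriceps minus fat, the log2 difference was -1.94 for Il1rap and -4.71 for Il1r2. The Il1r2 difference was not called by limma voom with group weights. Taken alone, the KPC response of Il1r2 was not called in quadriceps (FDR 0.274) or in fat (FDR 0.191). What underlies these values was not tested.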

How the results depend on the processing

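Over the alternatives 23 values newly passed the threshold, 15 no longer passed it and 36 changed sign, each sign change in a value that was not called; the cause was not tested. In quadriceps, KPC against no tumor called 1 of the 9 genes down in place of 2 with only these groups in the fit and 1 with the replicate block, where the block gave Tnfaip3 -0.64 (FDR 0.0929), and 1 to 2 when single libraries were left out. Genes called up then numbered 3 to 4, and in KPC against KPC IL6KO 3 to 5. With only KPC and no tumor in the fit Tlr4 was not called (FDR 0.0644). In fat, KPC against no tumor called 3 up by the likelihood ratio test, 3 by DESeq2, 1 with only these groups in the fit (Il1rn) and 1 in Gpx5-high libraries, and KPC IL6KO against no tumor 2 up by the likelihood ratio test and 2 by DESeq2. The tissue difference for KPC called 1 gene lower with voom and 2 to 4 when single libraries were left out, 4 without fat no tumor 6. With the replicate block, which pairs numbers that label different mice, the log2 FC changed sign to -0.0413 for Irak3 in quadriceps KPC IL6KO against no tumor, and in fat to 0.0846 for Irak3 in KPC and -0.00469 for Il1rap in KPC IL6KO. In fat KPC IL6KO against no tumor Il1rap was -0.0125 by DESeq2, -0.0108 with RLE, -0.0106 with at least 10 counts in every library and -0.13 in Gpx5-low libraries. In fat KPC against no tumor Irak3 was 0.00975 with only these groups and 1.08 in Gpx5-high libraries, where Myd88 was -0.10. Leaving out single libraries, the log2 FC ranged in quadriceps KPC IL6KO against no tumor from -0.97 to 0.88 for Il1r2, -0.0570 to 0.0921 for Myd88, -0.0743 to 0.25 for Tnfaip3 and -0.0157 to 0.16 for Irak3, and in KPC against KPC IL6KO from -0.29 to 0.51 for Tlr2. In fat it ranged from -0.17 to 0.13 for Il1rap in KPC IL6KO and -0.24 to 0.28 for Irak3 in KPC, each against no tumor. Between the tumor groups in fat it ranged from -0.0682 to 0.48 for Tlr4, -0.0776 to 0.12 for Myd88, -0.27 to 0.0714 for Nfkbia, -0.39 to 1.47 for Il1rn and -0.71 to 0.0550 for Tlr2. The tissue difference ranged from -0.0370 to 0.51 for Nfkbia in KPC and from -0.33 to 0.0474 for Myd88 in KPC IL6KO. Over all genes, leaving out KPC IL6KO 6 gave 14 genes up and 1 down in fat KPC against no tumor and 12 up and 1 down in KPC IL6KO against no tumor, leaving out KPC 8 gave 1 up in the former, and the tissue difference for KPC IL6KO had 9 higher and 103 lower without fat KPC IL6KO 6 and 1 lower without quadriceps KPC 1. Leaving out quadriceps KPC IL6KO 1 gave 2 genes down against no tumor. Fat had 4 mice a group and a coefficient of variation of 63.5%, and Il1r2 in no tumor fat rests on 1 to 37 counts per library.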
